A study of Mus musculus with 6 samples.

Results

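The genes described here are 10 receptors, inhibitors, signal relays and targets of the WNT pathway that were chosen by name, namely Apcdd1, Axin2, Lgr4, Lrp5, Lrp6, Fzd1, Fzd6, Fzd7, Tcf7l2 and Apc. They were chosen with earlier results of these data known. Rows for 9 of them were found among the 19179 genes listed in each library, and Axin2 was not analysed here. Of these 9 genes, 6 reached 1 RPKM (a read count divided by gene length and library total) in at least 3 of the 6 libraries and were tested among 10097 genes. The libraries are messenger RNA from clones of 4T1, a mouse mammary carcinoma line of strain BALB/C that metastasizes on its own in mice. Wells were seeded with 1 cell each, grown for 14 days in medium with no other agent named, and then 10 clones of each of 2 kinds were picked, in batches from 3 experiments. One kind carries the tissue label breast cancer stem cell (stem-labelled, 3 libraries) and the other the tissue label breast cancer cell (other, 3 libraries). The labels give no criterion for the kind of a clone, no number of clones per library and no link from a library to its experiment. The p-values below therefore measure only the spread between these libraries, which may be technical.

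WNT proteins are secreted, lipid-modified ligands that bind a Frizzled receptor together with the coreceptor LRP5 or LRP6. Without ligand, a destruction complex built on APC and AXIN marks β-catenin for degradation, and with ligand β-catenin accumulates, enters the nucleus and acts with TCF/LEF factors on target genes. Many targets, Axin2 and Apcdd1 among them, encode inhibitors of the same pathway, and WNT signalling has a long-known part in mammary stem cells and mammary tumours.

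In the stem-labelled clones the WNT inhibitor Apcdd1 stood 17.1 times as high as in the other clones, the receptor Fzd7 7.04 times, the receptor Fzd6 3.05 times, and the coreceptors Lrp5 and Lrp6 2.85 and 3.84 times, as ratios of mean RPKM. These 5 genes rose by limma with Benjamini-Hochberg adjustment at an adjusted p under 0.05, the threshold for a call here, though the call for Lrp6 ended once trends with gene length and GC content were subtracted. The TCF factor Tcf7l2 did not pass, and no gene of the 6 was called lower. Calls were common, at 29.9% higher and 25.4% lower of all genes tested. Lrp6 and Tcf7l2 reached 1 RPKM in no library of the other clones, so they could enter the test only by being higher in the stem-labelled ones, and the count of 5 in 6 is a description only. Lgr4, Fzd1 and Apc stayed below the filter.

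Transcription start regions could be set beside these values for some of the genes. Regions of 5 of the 10 genes were taken from the RefSeq table of start regions (GRCm38.p6), and those of Apcdd1 and Apc were not searched here. The 250 bases before each start were searched on both strands for the core letters bound by TCF/LEF factors. These are CTTTG followed by 2 letters that are each A or T, which gives 4 forms. The form ending in TT is also read by SOX factors, so a match does not tell the families apart. The region of Fzd7 is shown because this receptor rose and its region held a match. The regions before 2 starts of Tcf7l2 are shown because this gene encodes a TCF factor and they differ from each other. Capitals mark the match, and all are written 5′ to 3′ on the plus strand, which is the strand of both genes.
Fzd7 chr1:59481897-59482146: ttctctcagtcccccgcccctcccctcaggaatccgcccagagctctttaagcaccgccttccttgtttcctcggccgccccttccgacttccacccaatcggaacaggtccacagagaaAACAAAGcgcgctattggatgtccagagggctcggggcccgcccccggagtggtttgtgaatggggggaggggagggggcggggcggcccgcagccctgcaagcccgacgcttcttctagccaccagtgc
Tcf7l2 first start chr19:55741560-55741809: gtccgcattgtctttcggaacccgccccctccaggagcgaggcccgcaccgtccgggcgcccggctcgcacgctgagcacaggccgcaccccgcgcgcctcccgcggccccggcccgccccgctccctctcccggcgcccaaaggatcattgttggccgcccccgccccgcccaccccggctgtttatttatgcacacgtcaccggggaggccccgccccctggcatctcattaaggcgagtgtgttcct
Tcf7l2 second start chr19:55895071-55895320: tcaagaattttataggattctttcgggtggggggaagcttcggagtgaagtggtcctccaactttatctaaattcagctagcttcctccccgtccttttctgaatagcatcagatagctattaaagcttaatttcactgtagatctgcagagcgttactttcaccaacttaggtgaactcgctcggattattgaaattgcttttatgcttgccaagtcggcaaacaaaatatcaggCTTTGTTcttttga
In Fzd7 the match lies on the minus strand and begins 130 bases before the start, in a region of 65.2% G and C. The first start of Tcf7l2 has no match in a region of 72.8% G and C, and the second has the form ending in TT 14 bases before the start in a region of 40.8% G and C. The regions of Axin2, Lgr4 and Fzd1 held no match. Of all 32851 RefSeq start regions of this length, 14.8% held at least 1 of the 4 forms and 5.03% held the form ending in TT, which is the one found in Fzd7 and Tcf7l2. No GENCODE exon lies in the 3 windows shown.

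Of the Frizzled genes chosen, which encode receptors for WNT ligands at the cell surface, Fzd7 had a larger change than Fzd6. Fzd7 (ENSMUSG00000041075, chromosome 1, 59482424 to 59486955 on GRCm38) stood at 11.3, 11.5 and 10.3 RPKM in stem-labelled replicates 1 to 3 and at 1.70, 1.08 and 1.91 RPKM in the 3 other libraries. The 3 stem-labelled libraries lie close together, and the lowest of them is far above the highest of the other clones. The means were 11.01 ± 0.661 and 1.56 ± 0.430 RPKM (SD, n = 3 each), from 4534 and 240 reads. The change on the scale of log2(RPKM + 1), on which all changes here are given and which understates those of low genes, was 2.24 ± 0.20 (SE; limma with Benjamini-Hochberg adjustment, adjusted p = 0.000117). It ranked 69 from the top of all 10097 tested genes.

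Fzd6, a receptor known for planar cell polarity in skin and hair follicles, was the more abundant of the pair per length. Fzd6 (ENSMUSG00000022297, chromosome 15, 39006280 to 39038186) stood at 15.8, 17.4 and 20.7 RPKM in the stem-labelled libraries and at 6.66, 5.15 and 5.84 RPKM in the other libraries. The groups do not overlap, and each group keeps a narrow range. The change was 1.46 ± 0.20 (adjusted p = 0.000422), from 6788 and 836 reads. Exons of Fzd6 overlap Gm26704, a gene on the opposite strand, and since the strand of counting is not given, reads of the pair cannot be told apart. Fzd1, the third receptor chosen, was low in all libraries: 0, 0.675 and 0.644 RPKM in the stem-labelled clones against 0.09996, 0.249 and 0.379 RPKM in the other clones. These values overlap, and the 0 in replicate 1 of the stem-labelled clones allows up to 0.0251 RPKM (3 reads, counting error only).

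**Figure D1:**
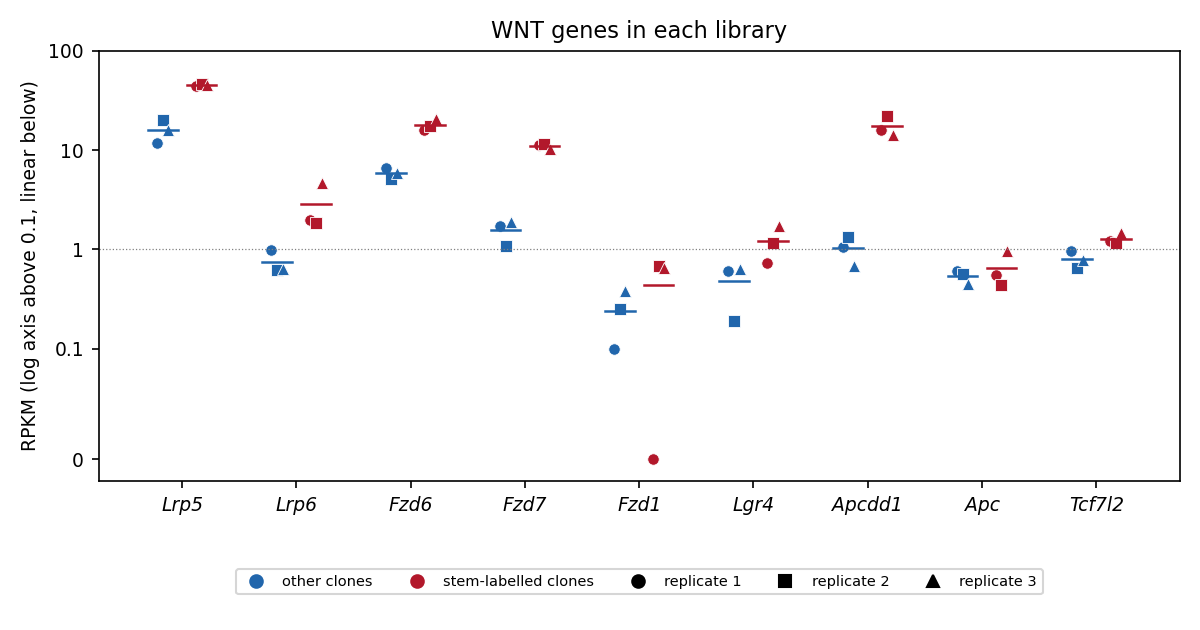
Level of each of the 9 WNT genes in each library, in RPKM on an axis that is logarithmic above 0.1 and linear below. Each point is 1 library, blue for the other clones and red for the stem-labelled clones, with the replicate number as its shape, and each horizontal bar is a group mean. The 2 colours are apart for Lrp5, Lrp6, Fzd6, Fzd7, Lgr4, Apcdd1 and Tcf7l2 and overlap for Fzd1 and Apc. The dotted line marks 1 RPKM.

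Because RPKM are scaled by a library total, the makeup of the receptors within each library was also compared, which does not depend on that total. Fzd2, Fzd6 and Fzd7 are of similar length, at 3663, 4134 and 4532 bases. The 9 Frizzled genes listed summed to 48.5, 49.4 and 44.8 RPKM in the stem-labelled clones and to 41.9, 25.6 and 35.8 RPKM in the other clones. Fzd7 made up 23.3, 23.2 and 22.9% of this sum in the stem-labelled libraries and 4.07, 4.23 and 5.32% in the other libraries. Fzd6 made up 32.6, 35.1 and 46.1% against 15.9, 20.1 and 16.3%. Fzd2, a receptor of the same subfamily as Fzd7, took the larger part in the other clones, with 66.5, 62.4 and 71.1%, and 37.2, 34.2 and 22.7% in the stem-labelled ones. So the leading Frizzled transcript per length was Fzd2 in every library of the other clones and in replicate 1 of the stem-labelled clones, and Fzd6 in replicates 2 and 3 of the latter. The shares of Fzd2, Fzd6 and Fzd7 did not overlap between the groups (two-sided exact permutation p = 0.1 for each, the smallest that 3 against 3 libraries allow, 0.15 after Benjamini-Hochberg adjustment over the 18 shares, sums and ratios compared).

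The ratio of Fzd6 to Fzd7 was 1.40, 1.51 and 2.01 in the stem-labelled clones and 3.91, 4.76 and 3.06 in the other clones, again with no overlap (exact permutation p = 0.1, adjusted 0.15). Of 5 tested Frizzled genes, 3 rose, 1 fell and 1 did not pass, where 29.9% of all tested genes rose and 25.4% fell. Once trends with gene length and GC content were subtracted, 2 were called higher and 0 lower, where 22.3% and 24.9% of all tested genes were. Beside Fzd6 and Fzd7, Fzd5 rose from 0.176 ± 0.115 to 1.58 ± 0.0987 RPKM (1.14 ± 0.17, adjusted p = 0.00055), a ratio of means of 8.96, and Fzd9 fell from 2.99 ± 1.60 to 0.893 ± 0.279 RPKM (-1.01 ± 0.28, adjusted p = 0.0132). Fzd5 reached 1 RPKM in no library of the other clones, so it could enter the test only by being higher in the stem-labelled ones. Neither passed once trends with gene length and GC content were subtracted (0.30 and -0.15). By limma Fzd9 also did not pass without stem-labelled replicate 3 (adjusted p = 0.0544) or with no filter (adjusted p = 0.063). Rescaled to equal reads in genes, it stood at -0.46 and did not pass either (adjusted p = 0.152). Fzd2 itself did not pass, at 15.0 ± 4.25 against 23.1 ± 6.29 RPKM (adjusted p = 0.110).

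**Figure D2:**
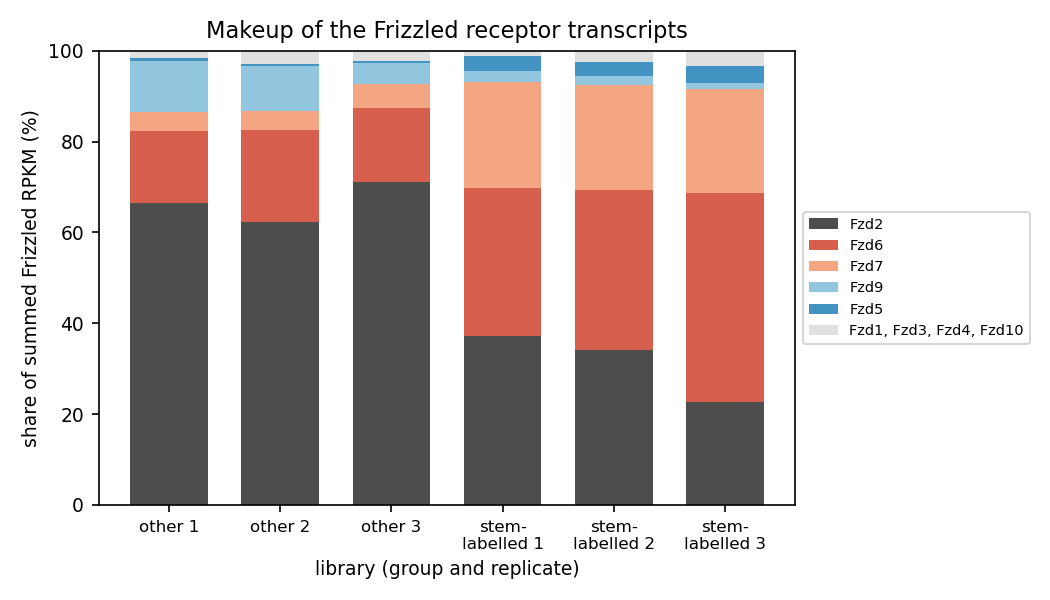
Share of each Frizzled gene in the summed Frizzled RPKM of each library, in percent, 1 bar for each library. Fzd2 (dark grey) fills 62.4 to 71.1% of the bars of the other clones and 22.7 to 37.2% of those of the stem-labelled clones, where Fzd6 (red) and Fzd7 (orange) are wider.

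Lrp5 and Lrp6 encode the coreceptors that carry the WNT signal from Frizzled to the destruction complex. Lrp5 (ENSMUSG00000024913, chromosome 19, 3584828 to 3686564) was the highest of the 9 genes per length in both kinds of clone, at 44.1, 46.1 and 45.6 RPKM in the stem-labelled libraries and 11.9, 19.95 and 15.9 RPKM in the other libraries. The stem-labelled values are nearly equal and all lie above the other values, which spread more widely. The change was 1.48 ± 0.23 (limma, adjusted p = 0.000757), from 40136 and 5353 reads.

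Lrp6 (ENSMUSG00000030201, chromosome 6, 134446476 to 134566965) was much lower, at 1.99, 1.86 and 4.71 RPKM against 0.976, 0.617 and 0.639 RPKM. Replicate 3 of the stem-labelled clones stands well above the other libraries of its group, and the groups do not overlap. The change was 1.07 ± 0.27 (adjusted p = 0.00856), and without that library 0.75 with the same genes tested (adjusted p = 0.0111). Once trends with gene length and GC content were subtracted it was 0.07 and not called (adjusted p = 0.774). The ratio of Lrp5 to Lrp6 was 22.2, 24.7 and 9.67 in the stem-labelled and 12.2, 32.3 and 24.9 in the other clones, so the balance of the coreceptors overlapped between the groups (exact permutation p = 0.5). Ratios of Fzd6 to Lrp5 overlapped as well, at 0.358, 0.377 and 0.454 against 0.562, 0.258 and 0.367 (exact permutation p = 1). Ratios of Fzd7 to Lrp5 did not overlap, at 0.256, 0.249 and 0.225 in the stem-labelled and 0.144, 0.0542 and 0.120 in the other clones (exact permutation p = 0.1, the smallest possible, adjusted 0.15).

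Lgr4, a receptor for R-spondins, the secreted proteins that keep Frizzled receptors at the cell surface, was low throughout. Lgr4 (ENSMUSG00000050199, chromosome 2, 109917647 to 110014257) stood at 0.734, 1.16 and 1.73 RPKM in the stem-labelled and 0.613, 0.191 and 0.641 RPKM in the other clones. All 3 stem-labelled values are above the others, but the nearest pair differ little, and only 95 reads lie behind the values of the other clones. Tested without the filter, its difference of 0.56 did not pass (limma, adjusted p = 0.112), while 16% of all listed genes were called higher and 12.1% lower.

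Apcdd1 encodes a membrane glycoprotein that binds WNT ligands and LRP5 and dampens the signal, and it is itself a widely used WNT target. Apcdd1 (ENSMUSG00000071847, chromosome 18, 62922327 to 62953195) stood at 16.0, 22.1 and 14.3 RPKM in the stem-labelled libraries, from 1275, 1879 and 1286 reads. In the other libraries it stood at 1.05, 1.35 and 0.674 RPKM, from 35, 47 and 19 reads. The lowest stem-labelled value is more than 10 times the highest of the other clones. Its change of 3.18 ± 0.23 ranked 10 from the top of all tested genes. Within libraries, Apcdd1 reached 0.363, 0.480 and 0.313 of the level of Lrp5 in the stem-labelled clones and 0.0885, 0.0676 and 0.0424 in the other clones. Against Fzd7 it reached 1.42, 1.93 and 1.39 times its level in the stem-labelled clones and 0.616, 1.25 and 0.354 times in the other clones. Neither ratio overlapped between groups, and neither could pass the threshold with 3 against 3 libraries (exact permutation p = 0.1, adjusted 0.15 for both).

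The 5 genes whose centred profile over the 6 libraries lay nearest to that of Apcdd1, among 5949 tested genes with a mean of at least 5 RPKM, were Gm23935, Rn18s-rs5, St3gal1, Rere and Olfm1. Their Euclidean distances on the log2 scale were 0.498, 0.518, 0.5998, 0.609 and 0.716, against a median of 4.17 over all candidates. The profiles were not scaled, so nearness largely reflects a group change of similar size, here 2.86 to 3.69 for the 5 genes. Rn18s-rs5 is a ribosomal RNA gene, at 226 ± 44.2 RPKM in the stem-labelled and 20.5 ± 2.77 RPKM in the other clones. Gm23935 carries the type miRNA in the annotation and stood at 4180 ± 986 and 477 ± 47.7 RPKM. Whether the content of ribosomal RNA bears on the WNT values was not tested. St3gal1, which adds sialic acid to glycans, stood at 44.8 ± 12.1 and 4.41 ± 1.90 RPKM.

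Apc and Tcf7l2 act inside the cell, and neither passed. Apc, the scaffold of the destruction complex (ENSMUSG00000005871, chromosome 18, 34220924 to 34322189), stood at 0.553, 0.435 and 0.974 RPKM in the stem-labelled and 0.607, 0.561 and 0.454 RPKM in the other clones. The values overlap, and without the filter the difference of 0.09 had an adjusted p of 0.663. Tcf7l2, a DNA-binding partner of β-catenin (ENSMUSG00000024985, chromosome 19, 55741810 to 55933654), stood at 1.21, 1.15 and 1.46 RPKM against 0.970, 0.653 and 0.784 RPKM. The groups do not overlap, but the change of 0.34 ± 0.17 did not pass (95% interval -0.05 to 0.72, adjusted p = 0.120). Other treatments of the values called it both ways, lower once the length and GC trends were subtracted (-0.62, adjusted p = 0.0113) and higher after rescaling to equal reads in genes (0.81, adjusted p = 0.00388). Of the 9 genes, 7 had all stem-labelled libraries above all others, as did 26.7% of all 19179 listed genes.

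In order of level, the stem-labelled clones had Lrp5, then Fzd6 and Apcdd1, whose ranges overlap, then Fzd7 and Lrp6, each apart from the next, and then Tcf7l2, Lgr4, Apc and Fzd1, each overlapping the next. The other clones had Lrp5, then Fzd6, then Fzd7, Apcdd1, Tcf7l2 and Lrp6, each overlapping the next, and then Apc, Lgr4 and Fzd1, again overlapping in turn. Apcdd1 thus overlapped Fzd6 in the stem-labelled clones, and Fzd7, Tcf7l2 and Lrp6 in the other clones. The 9 genes summed to 91.7, 102 and 100 RPKM in the stem-labelled clones and to 24.5, 29.8 and 27.2 RPKM in the other clones. As RPM over the reads in genes, which does not use the library totals of the deposited unit, they summed to 847, 912 and 1095 against 134, 202 and 142. RPM is not divided by length, so long genes such as Lrp5 (40136 and 5353 reads) weigh more in it than in RPKM. In bulk RNA, fewer cells that express a gene and less RNA of it per cell cannot be told apart.

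Properties of the libraries moved with the groups. Each stem-labelled library held 21196572 to 22838870 reads in genes and each other library 15357608 to 16830762, which were 0.658 to 0.757 and 1.23 to 1.53 times the library totals that the deposited unit implies. Rescaled to equal reads in genes, the median over all genes shifted from 0.11 to 0.86, with 58.7% called higher and 12.3% lower. Longer genes were higher in the stem-labelled clones: in the decile of 8323 to 38847 bases, which holds Lrp5, Lrp6 and Tcf7l2, 59.6% of genes were called higher and the median change was 0.72. In the decile of Fzd7 37.2% were called higher (median 0.33), in that of Fzd6 30.7% (median 0.21) and in that of Apcdd1 21.4% (median -0.07). Markers of carcinoma epithelium summed to 920 to 1424 RPKM in the stem-labelled and 1957 to 3575 RPKM in the other clones, with 7 of 7 listed. Krt8 and Krt18 make up most of that sum and the 7 genes did not move together. Krt18, Krt19 and Cldn3 fell by limma (-1.79, -3.67 and -2.21). After the correction described next they stood at -0.79, -2.81 and -0.76, and Cldn3 was no longer called. Cdh1 rose from 16.0 ± 1.98 to 68.9 ± 9.002 RPKM (2.04, limma, adjusted p = 0.000149), with 1.36 after the correction. Krt8 did not pass (-0.90, and -0.06 after the correction), Cldn7 was below the filter, and Epcam stood at 55.2 and 56.2 RPKM. Fibroblast markers summed to 1.68 to 3.38 and 0.396 to 1.01 RPKM with 4 of 7 listed, of which Dcn, Col1a1 and Col1a2 were below 1 RPKM in every library. Pdgfra made up nearly all of that sum and rose from 0.650 ± 0.267 to 2.59 ± 0.869 RPKM (1.10, limma, adjusted p = 0.00325). It entered the test through the stem-labelled libraries alone, and stood at 0.05 with no call after the correction. Endothelial markers summed to at most 0.128 and 2.89 RPKM (4 of 5 listed), and leukocyte markers to at most 0.0270 and 0.00916 RPKM (3 of 6 listed). Tie1 made up nearly all of the endothelial sum in the other clones, at 2.27, 0.392 and 2.85 RPKM, and was below the filter. Without the filter it was called lower (limma, adjusted p = 0.0453), as were 12.1% of all listed genes. Pecam1, Kdr and Tek were below 1 RPKM in every library. The part of depth, length and these markers in the WNT values was not tested beyond the alternatives that follow.

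Subtracting the trend of each library on gene length and GC content left Apcdd1 at 2.91 (adjusted p = 7.83e-05), Fzd7 at 1.82 (adjusted p = 0.000352), Fzd6 at 0.93 (adjusted p = 0.00277) and Lrp5 at 0.76 (adjusted p = 0.0102), all by limma. Lrp6 no longer passed (0.07, adjusted p = 0.774). Tcf7l2 turned to -0.62 and was called lower (adjusted p = 0.0113). With this correction 22.3% of all tested genes were called higher and 24.9% lower. With rescaling to equal reads the changes were 3.83 for Apcdd1, 2.95 for Fzd7, 2.38 for Lrp5, 2.30 for Fzd6 and 1.61 for Lrp6, all above the median of 0.86, while Tcf7l2 at 0.81 was called higher (adjusted p = 0.00388) but lay below that median. Apcdd1, Fzd7, Fzd6 and Lrp5 were thus called higher under both, and the direction of Tcf7l2 depended on the choice. By voom on the recovered reads the same 5 genes were called higher, with 26.7% of all tested genes called higher and 27.6% lower. Whether subtracting these trends takes biological differences with them was not tested.

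**Figure D3:**
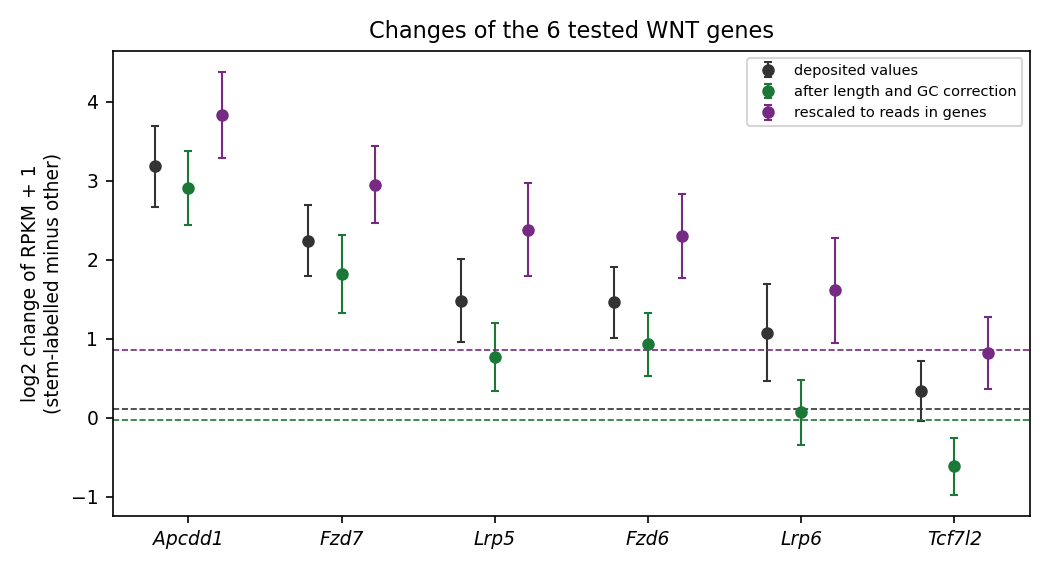
Change of log2(RPKM + 1), stem-labelled minus other, of the 6 tested genes under 3 treatments of the values, as points with 95% intervals from limma; dashed lines in the same colours are the medians of all tested genes (0.11, -0.03 and 0.86). Apcdd1, Fzd7, Lrp5, Fzd6 and Lrp6 lie above the median line of their colour in all 3, Lrp6 only just after the correction (0.07). Tcf7l2 lies below the line of its colour in 2.

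**Figure D4:**
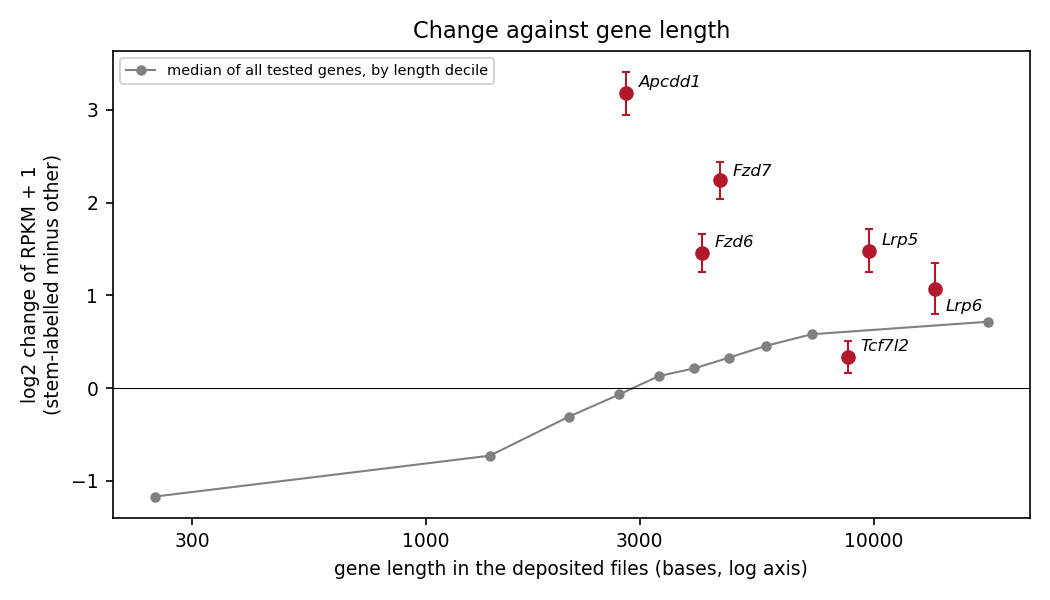
Change of log2(RPKM + 1) of the 6 tested genes (red, bars are 1 SE) against gene length in bases on a logarithmic axis. The grey line joins the median changes of all tested genes in each length decile and climbs from -1.17 to 0.72; Apcdd1 at 3.18 and a length of 2799 bases is farthest above it, and Tcf7l2 at 0.34 is below it.

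The wider pathway was read from 9 lists by role, holding 155 distinct genes, of which 124 were listed in the files and 78 tested. Of the 78, 43 rose, 6 fell and 29 did not pass, or 55.1% higher and 7.69% lower against 29.9% and 25.4% of all tested genes. The median change was 0.79 against 0.11 for all tested genes. After the length and GC correction 29 were called higher and 5 lower (median 0.30 against -0.03), where 22.3% and 24.9% of all tested genes were. After rescaling 59 and 1 were (median 1.45 against 0.86), where 58.7% and 12.3% of all tested genes were. Of the 78, 11 entered the test through the stem-labelled libraries alone and 0 through the other libraries alone, which favours higher calls. The lists hold the genes described first and were chosen with earlier results of these data known, so these counts are a description only. The 78 were also longer, at a median of 4621.5 bases against 3634 for all tested genes, and longer genes were more often called higher.

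Ligands did not move as one group. Of 6 tested ligand and secretion genes, 2 rose, 2 fell and 2 did not pass, where 29.9% of all tested genes rose and 25.4% fell. Wnt7a fell, at 11.3, 4.28 and 6.02 RPKM in the stem-labelled clones against 33.5, 28.5 and 33.1 RPKM in the other clones (-2.09 ± 0.30, adjusted p = 0.000491), and was called lower after the correction and after rescaling too (-2.06 and -1.22). Porcn, the acyltransferase that lipid-modifies WNT ligands, fell by 0.87 on the log2 scale (-0.28 and not called after rescaling). Wls, which carries WNT ligands to the cell surface, rose from 2.73 ± 0.264 to 9.80 ± 3.77 RPKM (1.47 ± 0.28, adjusted p = 0.00187), and Wnt10b rose from 0.577 ± 0.0835 to 2.85 ± 1.40 RPKM (1.23 ± 0.25). Wnt10b entered the test through the stem-labelled libraries alone.

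Of 5 tested coreceptors and other receptors, 4 rose, 0 fell and 1 did not pass, where 29.9% of all tested genes rose and 25.4% fell. After the correction 3 were called higher and 0 lower, where 22.3% and 24.9% of all tested genes were. Beside Lrp5 and Lrp6 those that rose were Ryk, a receptor tyrosine kinase-like WNT receptor (1.16, and 0.54 after the correction), and Reck, which serves WNT7 ligands (1.15, and 0.47 after the correction). Both lost the call when the replicate number was a block together with the correction (adjusted p = 0.0584 and 0.0719), and Reck, like Lrp6, entered the test through the stem-labelled libraries alone. In the R-spondin axis 2 of 3 tested genes rose, namely the ubiquitin ligases that remove Frizzled from the membrane and are themselves WNT targets. After the correction 1 of the 3 was called higher and 1 lower, beside the same shares of all tested genes. Rnf43 rose from 0, 0.0858 and 0.197 RPKM to 1.10, 1.28 and 1.06 RPKM (0.98 ± 0.17, adjusted p = 0.00111). Znrf3 rose from 0.472 ± 0.0417 to 1.80 ± 0.347 RPKM (0.92 ± 0.18, adjusted p = 0.00195), and stood at -0.08 with no call after the correction. Both reached 1 RPKM in the stem-labelled libraries and in no other library, so they too could enter the test only by being higher there. Lgr6 did not pass (-0.30) and was called lower after the correction (-1.13).

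Among 4 tested inhibitors, Apcdd1 and Kremen1, a DKK receptor, rose, and Sfrp1 and Igfbp4 did not pass, where 29.9% of all tested genes rose and 25.4% fell. After the correction 1 of the 4 was called higher and 0 lower, where 22.3% and 24.9% of all tested genes were. Kremen1 rose from 2.09 ± 0.275 to 5.41 ± 0.463 RPKM (1.06 ± 0.18, adjusted p = 0.00121), with 0.49 and no call after the correction. Sfrp1 varied from 0 to 5.10 RPKM within the stem-labelled clones. Of these 4, Apcdd1 had the largest change, and 7 further inhibitors listed were below the filter.

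Of the relay genes around Dishevelled, 4 of 9 tested rose and 1 fell, where 29.9% of all tested genes rose and 25.4% fell. After the correction 5 of the 9 were called higher and 1 lower, where 22.3% and 24.9% of all tested genes were. Csnk1d rose (1.19), as did Dvl3 (0.86), Dvl2 (0.83) and Csnk1e (0.54, named after its values were seen). Csnk1g2 fell by 1.35 on the log2 scale (-0.42 and not called after rescaling). Dvl2 was not called without stem-labelled replicate 2 (0.74, adjusted p = 0.0552). Dvl1, the highest of the Dishevelled genes and named after its values were seen, went the other way. It stood at 59.6 ± 3.40 RPKM in the stem-labelled and 105 ± 43.7 RPKM in the other clones. Its change of -0.73 did not pass by limma (adjusted p = 0.0602). By voom it was called lower (adjusted p = 0.0366), and after rescaling it was 0.20 and not called. Csnk1e was not called with the correction (0.24, adjusted p = 0.369), with the block, by voom, with no filter, or without any 1 of 5 libraries, all but stem-labelled replicate 3. In the destruction complex and its regulators 12 of 19 tested genes rose and 1 fell, the kinase gene Gsk3a, named after its values were seen (-0.86; 0.06 after rescaling and -0.32 after the correction, neither called). After the correction 6 of the 19 were called higher and 0 lower, against 22.3% and 24.9% of all tested genes. After rescaling 18 and 0 were, against 58.7% and 12.3% of all tested genes. Axin1, the scaffold related to Axin2, rose from 9.23 ± 2.31 to 25.4 ± 1.30 RPKM (1.39 ± 0.22, adjusted p = 0.000807; 1.44 after the correction). Fbxw11, a β-catenin ubiquitin ligase subunit, rose by 1.56 (0.98 after the correction), while the kinase gene Gsk3b and the phosphatase subunit gene Ppp2r5a rose by 1.16 and 1.38 and were not called after it (0.24 and 0.33). Ctnnb1, which encodes β-catenin and was singled out after its values were seen, rose from 84.0 ± 27.9 to 214 ± 39.5 RPKM (1.37 ± 0.30, adjusted p = 0.0041) and was not called after the correction (0.61).

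Of 18 tested nuclear factors, 10 rose and 1 fell, the short corepressor gene Aes, named after its values were seen (-1.40; -0.46 after rescaling and -0.30 after the correction, neither called). Of all tested genes 29.9% rose and 25.4% fell. After the correction 6 of the 18 were called higher and 1 lower, against 22.3% and 24.9% of all tested genes. After rescaling 15 and 0 were, against 58.7% and 12.3% of all tested genes. Bcl9l and Bcl9, which tie β-catenin to coactivators, rose by 2.05 ± 0.24 and 1.58 ± 0.18 (2.17 and 1.02 after the correction). The corepressor Tle1 rose from 0.786 ± 0.0782 to 6.63 ± 1.44 RPKM (2.08 ± 0.20, adjusted p = 0.000131; 1.18 after the correction), but reached 1 RPKM in no library of the other clones and so could enter the test only by being higher. Neither Tcf7l2 nor Tcf7 passed (0.34 and 0.33), and Lef1 had only 5 reads over the stem-labelled libraries and 4 over the others.

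Targets were the final list, with 7 of 13 tested genes higher, 0 lower and 6 not passed, where 29.9% of all tested genes rose and 25.4% fell. After the correction 5 of the 13 were called higher and after rescaling 12, against 22.3% and 58.7% of all tested genes. Sox4, a transcription factor of progenitor cells, stood at 13.1, 23.6 and 15.6 RPKM in the stem-labelled clones and 2.52, 1.79 and 2.59 RPKM in the other clones (2.45 ± 0.25, adjusted p = 0.000132; 1.74 after the correction). Apcdd1, Rnf43 and Znrf3, given above, are in this list too. Myc, singled out after its values were seen, stood at 55.3 ± 9.23 and 55.3 ± 7.43 RPKM (adjusted p = 0.992), and was called higher after rescaling (0.92, close to the median of all genes). Nkd1, a target in many tissues, had 0 and 2 reads.

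**Figure D5:**
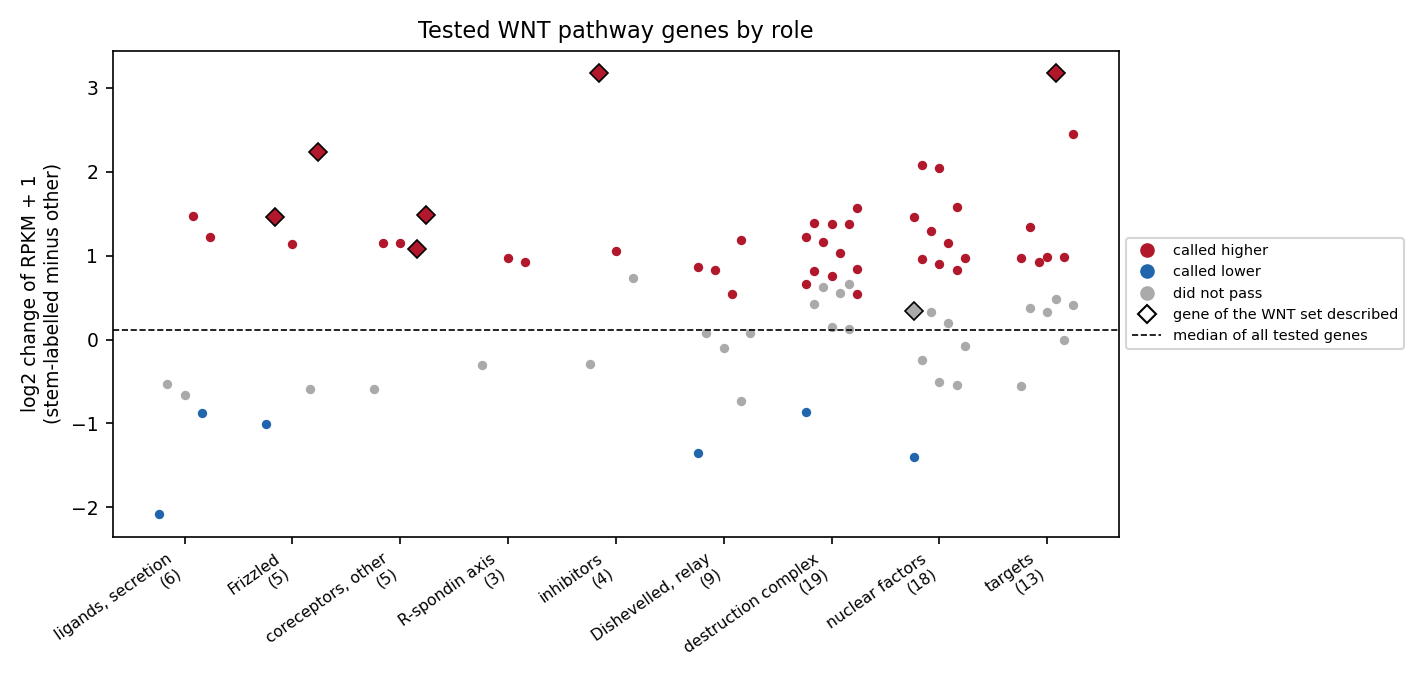
Change of log2(RPKM + 1), stem-labelled minus other, of each tested gene of the 9 WNT role lists, 1 point a gene, with the number tested in brackets; a gene in several lists is drawn in each. Red points were called higher, blue lower and grey did not pass; diamonds are the genes described first, and the dashed line is the median of all tested genes (0.11). Apcdd1 at 3.18 is the highest point and Wnt7a at -2.09 the lowest.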

How the data were processed

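The authors deposited 1 table of RPKM per library. The build mm9, TopHat2 2.0.9 and Bowtie2 2.0.6 appear in the submitters' processing notes. The counting program and strand are not given in the sources used here. Of the gene identifiers, 99.6% are in GENCODE M21 and 80.6% share start and end with it on GRCm38, so coordinates are given on GRCm38. RPKM multiplied by gene length gave whole multiples of 1 step in each library (100% of values, tolerance 0.01), which returned the reads; depths are in the report. Deposited RPKM were taken as log2(RPKM + 1) and compared with limma 3.58.1 in R 4.3.3, with a variance trend, two-sided, over genes of at least 1 RPKM in at least 3 libraries, with Benjamini-Hochberg adjustment over all 10097 genes (9082 removed). The correction fitted splines of log2 length and GC content (known for 99.9%), each with 5 degrees of freedom. Ratios and shares were compared by exact permutation over libraries. On simulated data for this comparison (10097 genes, 200 changed) 2-fold changes were found in 40.0% and 4-fold changes in 83.0%, with 4 calls among unchanged genes. The simulated noise was independent between genes, with no shift by gene length or scaling between the groups. The libraries here do show such shifts, so these rates hold for the simulated setting only. Named were the 10 genes chosen, up to 4 tested genes per role list with the smallest p, listed genes below the filter and the 5 nearest to Apcdd1; not all are described. Likeness to Axin2 was not analysed here. Members and lists were chosen with earlier results of these data known. Alternatives were the replicate block, each library left out, 2 scalings, voom on recovered reads, pseudocount, filters, the variance model, and the length and GC correction.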

Additional observations from a re-analysis of the deposited data

How the results depend on the processing

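Apcdd1, Fzd7, Fzd6 and Lrp5 were called higher under each alternative run, with changes of 2.91 to 3.99, 1.82 to 2.95, 0.93 to 2.30 and 0.76 to 2.38. WNT members called higher numbered 5 with the block, 4 with the length and GC correction alone and with the block, 4 with a filter on a mean of 5 RPKM and 6 after rescaling; WNT members called lower numbered 1 with the correction, alone and with the block (0 otherwise). Leaving out 1 library gave 4 to 5 higher, the lower count arising where Lrp6 left the filter; with the tested genes kept, an alternative chosen after seeing the data, it was 5 throughout. Of all genes, the number of all genes called higher was 5926 after rescaling, 1405 with a mean of at least 5 RPKM and 1984 with the block and the correction, against 3014, and all genes called lower numbered 1245 after rescaling, against 2563.

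WNT pathway list genes called higher numbered 20 with a mean of at least 5 RPKM, 23 with the block and the correction and 27 to 41 with 1 library left out, against 43, where 27 came without stem-labelled replicate 2 and 28 without stem-labelled replicate 3 as fewer genes passed the filter (64 and 66 tested). WNT pathway list genes called lower numbered 1 after rescaling, 10 with voom and 5 to 8 with 1 library left out, against 6. The direction turned for the log2 change of Tcf7l2 (-0.62 with the correction, with or without the block), the log2 change of Znrf3 (-0.081, likewise), and after rescaling for the log2 change of Fzd2 (0.30), the log2 change of Ptk7 (0.32), the log2 change of Lgr6 (0.44), the log2 change of Gsk3a (0.055) and the log2 change of Igfbp4 (0.65; -0.56 to 0.0050 with 1 library left out). The log2 change of Myc, near 0 in the report, was 0.92 after rescaling, 0.25 with upper-quartile scaling and -0.13 to 0.080 with 1 library left out. The log2 change of Sfrp1 was -0.45 with voom and 1.40 without stem-labelled replicate 1. Of 994 single-gene values under the alternatives, 913 kept direction and side of the threshold, 47 lost the call, 12 gained one and 22 turned. The cause was not tested.

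Deviations of same-numbered libraries from their group means correlated at -0.125, 0.0255 and -0.0848, which shows no pairing by replicate number. With 3 libraries in each group these correlations cannot decide whether same-numbered libraries share an experiment, so the pairing is unknown. With the replicate number as a block, 5 of the WNT genes and 40 pathway genes were called higher and 6 pathway genes lower, and 2735 and 2477 of all genes. Depth limits Lgr4, Fzd1 and Apc in the other clones, with 95, 34 and 296 reads in all.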

Other observations

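Several WNT genes below or near the filter had uneven reads over the stem-labelled libraries. Wisp2, a secreted WNT target also known as Ccn5, had 52, 242 and 84 reads in the stem-labelled clones and 3, 0 and 4 reads in the other clones, or 0.949, 4.15 and 1.36 against 0.131, 0 and 0.206 RPKM. The groups do not overlap, and without the filter the difference of 1.37 passed (limma with Benjamini-Hochberg adjustment, adjusted p = 0.0379, where 16% of all genes were called higher). Tnfrsf19, a receptor and WNT target, had 21, 423 and 118 reads against 2, 4 and 9, and did not pass (adjusted p = 0.188). Notum, a secreted deacylase that inactivates WNT ligands, had 0, 110 and 18 reads against 8, 1 and 7, and Sfrp1, a secreted WNT antagonist, had 0, 676 and 240 reads against 8, 30 and 45. Each of the 4 genes was highest in replicate 2 of the stem-labelled clones. These 4 are a selection, and other genes below the filter peaked elsewhere, as did Lgr4 (1.73 RPKM) and Amer1 (1.56 RPKM) in replicate 3.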
